A study of Mus musculus with 18 samples.

Results

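To ask which messages move between single ribosomes and small polysomes when canonical microRNAs (miRNAs) are lost, the low polysome to monosome ratio of each gene was compared between Dgcr8 knockout (KO) and wild type (WT) mouse embryonic stem cells (ESCs). The comparison used 12 of the 18 libraries of the series, which were selected by genotype and gradient fraction alone: 3 WT monosome, 3 WT low polysome, 3 KO monosome and 3 KO low polysome libraries. WT cells were the V6.5 line and KO cells were a single Dgcr8 KO line made earlier in the same laboratory, so that differences between these lines other than Dgcr8 itself cannot be told apart from the genotype. Cells of both genotypes were kept in LIF and 2i with serum, and both were given 100 ug/ml cycloheximide for 2 minutes before lysis and separation on 10 to 50% sucrose. The monosome fraction holds messages with a single ribosome and the low polysome fraction those with 2 to 4. High polysome libraries (4 or more ribosomes) came from the same gradients and entered the fit to share its estimate of spread. Within a genotype, the replicates are separate gradients that the labels number 1 to 3. The labels do not say whether these came from separate cultures, so p-values measure the spread between these libraries, which may be technical.

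DGCR8 binds primary miRNA hairpins and helps the nuclease DROSHA to cut them, and cells without it lack canonical miRNAs. In ESCs, a large share of the miRNAs belongs to the ESC-specific cell cycle regulating (ESCC) group, which represses its targets by base pairing of a short seed with sites in 3′ untranslated regions (UTRs). The number of ribosomes on a message depends on how often ribosomes start, how fast they elongate and how much coding sequence (CDS) there is to hold them. Messages with a very short CDS can hold few ribosomes even when well translated, and messages with a 5′ terminal oligopyrimidine (TOP) tract, which encode ribosomal proteins and other parts of the translation machinery, can be held out of polysomes as a group.

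Totals ran from 1151649 to 1578231 counts in WT monosome, 2847570 to 3521636 in WT low polysome, 1707918 to 2436888 in KO monosome and 3089222 to 3840124 in KO low polysome libraries, so low counts were measured least precisely in WT monosomes. Levels are given as CPM, in which the counts of a gene are divided by the total of the library after TMM scaling. They are shares of each library, and the absolute amount of RNA in a fraction was not measured. Dgcr8 itself (ENSMUSG00000022718, chr16:18253948-18289246, minus strand) gave 76.3, 68.4 and 79.6 CPM in WT monosomes and 51.8, 70.02 and 66.5 CPM in WT low polysomes. In KO cells it gave 47.3, 52.0 and 51.3 CPM in monosomes and 39.0, 58.6 and 42.0 CPM in low polysomes. Reads at the 3′ end need not lie in the deleted part of the gene, so these values do not check the knockout. The low polysome to monosome ratio of Dgcr8 differed by 0.11 ± 0.26, adjusted p = 0.853 (log2 KO minus WT ± SE, limma) and was not called. The 12 ESC markers (such as Pou5f1) summed to 3824 to 5038 CPM in all 12 libraries.

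Replicate 1 of the KO low polysome libraries stood apart. In this library, 19 genes with 20 counts or more were at least 4 times the higher of the other KO low polysome replicates (on CPM + 1), whereas each of the other 11 libraries had 0 such genes against its own group. This rule was chosen after the values were seen. The embryonic globin Hbb-y was at 425 CPM there and at 8.33 and 7.09 CPM in the other KO low polysome libraries. Hbb-bh1 was at 130.3 against 2.88 and 4.20 CPM, and Hba-x at 59.6 against 0.961 and 0.788 CPM. Genes that are no globins were in this group too, among them the imprinted RNA H19, the neuronal gene Nnat and the pluripotency RNA-binding gene Lin28a. The 12 erythroid markers summed to 644 CPM in this library and to 14.3 to 73.2 CPM in the other 11, and 0 of the 12 were at 0 in every library. In bulk samples, fewer cells of a type and less of its RNA per cell cannot be told apart. Of the 19 genes, 2 were called in the comparison (H19 and Igf2), and without the library H19 alone was called. The globins were called higher in some other fits that kept this library. With the gradient as a replicate block, these were Hba-x (3.34, adjusted p = 0.0121), Hbb-y (2.57, adjusted p = 0.0319) and Hbb-bh1 (2.40, adjusted p = 0.0475). With edgeR, Hbb-y was called (3.34, adjusted p = 0.0327). A weaker excess of the same globins, under the cut of 4 times, was seen in replicate 3 of the WT low polysome libraries. Hbb-y was at 43.05 CPM there and at 13.05 and 8.37 CPM in the other WT low polysome libraries. Hbb-bh1 was at 17.16 against 6.35 and 4.46 CPM, and Hba-x at 6.32 against 2.47 and 1.39 CPM. Among the other marker lists, 8 neural markers summed to 591 to 622 CPM in the KO low polysome libraries and 268 to 433 CPM in the other 9, and 12 fibroblast markers to 194 to 255 CPM in KO monosomes and 37.6 to 141 CPM in the other 9. Most of the neural sum was Stmn2 and most of the fibroblast sum Vim, and 1 marker of each list was at 0 in all libraries (Snap25 and S100a4). The sums of the other lists were 118 to 184 CPM for trophoblast, 6.62 to 37.5 CPM for primitive endoderm, 9.55 to 31.2 CPM for fetal liver, 17.7 to 45.04 CPM for muscle and 0 to 11.98 CPM for blood leukocytes. The part of these cell types in the results was not tested.

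**Figure D1:**
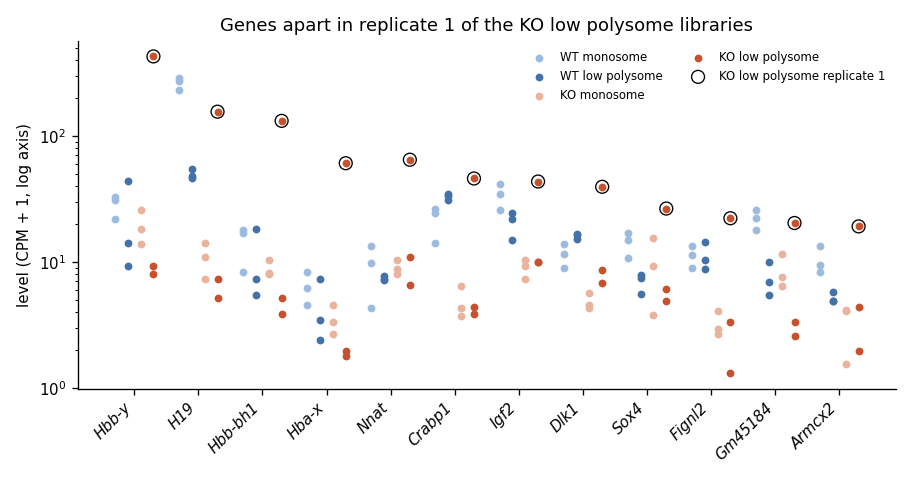
Levels of the 12 genes with the largest excess in replicate 1 of the KO low polysome libraries, in CPM + 1 on a log axis, with 1 point for each of the 12 libraries. The circled points of this replicate, such as Hbb-y at 425 CPM, lie above both other KO low polysome replicates for each gene shown.

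Across genes, many more messages moved toward monosomes than toward low polysomes in KO cells. Of 12851 genes tested with limma, 647 (5.03%) changed their low polysome to monosome ratio (adjusted p below 0.05, log2 change beyond 1 in either direction). The ratio was higher in KO cells for 158 (1.23%) and lower for 489 (3.81%), while the median change over all genes tested was 0.06 on the log2 scale. These percentages are the background against which the counts of gene groups below are to be read. Protein-coding genes, which were most of the genes tested, were called at nearly the same shares (136 higher, 1.16%, and 445 lower, 3.78%, of 11766). Without replicate 1 of the KO low polysome libraries, 127 genes were called higher and 459 lower, and 514 of the 647 genes kept their call (102 of the 158 higher and 412 of the 489 lower). Scaling to total counts gave 81 higher and 697 lower genes, with the median of all genes shifted by -0.13, and leaving out WT gradient 2 gave 75 higher and 571 lower genes, so the number of higher genes is the less certain one. In 13 of the called genes, every library of 1 group held 3 counts or fewer.

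**Figure D2:**
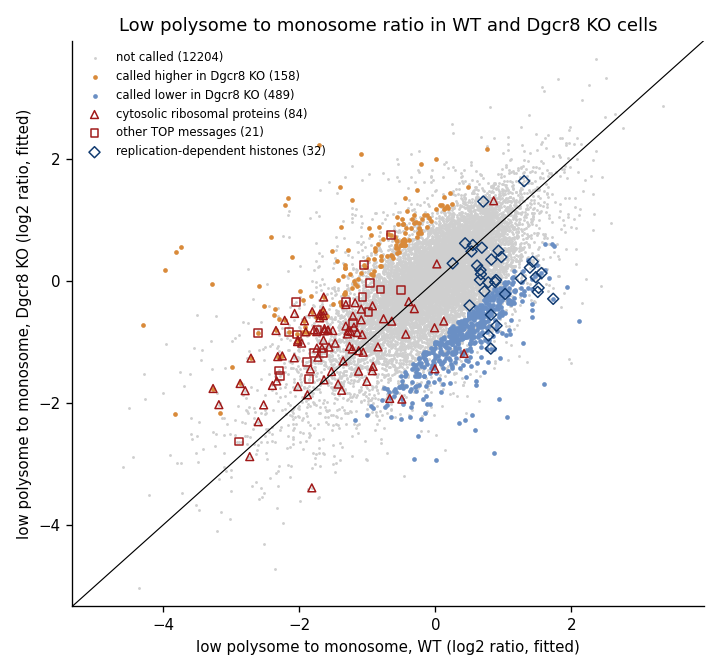
Fitted log2 ratio of low polysome to monosome in WT (x axis) and Dgcr8 KO cells (y axis), with 1 point for each of 12851 genes and a line where both are equal. The 489 genes called lower lie under the line and the 158 called higher above it, and most ribosomal protein genes and other TOP messages lie above it at ratios below 0, while most histone genes lie under it.

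Most of the called genes changed the side on which they were richer. The call asks for a change beyond 1, which favours such a crossing. Of the 489 lower genes, 381 were richer in low polysomes than in monosomes in WT cells and richer in monosomes in KO cells. The median ratio of the lower genes was 0.49 in WT and -0.87 in KO cells (log2). Among the 158 higher genes, 96 went the opposite way, with a median ratio of -0.91 in WT and 0.50 in KO cells.

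The fraction in which the level differed was not the same for these groups. The lower genes had less RNA in KO low polysomes, with a median KO to WT difference of -1.43 there and -0.06 in monosomes, and the low polysome difference was the larger one in 414 of 489. For the higher genes, the median difference was -0.88 in monosomes and 0.54 in low polysomes, and the monosome difference was the larger one in 91 of 158. Over all 12851 genes, the low polysome difference was the larger one in 7120 and the monosome difference in 5731. The monosome and low polysome differences are the components of the change itself, so these values describe it and do not add a test.

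Messages for the translation machinery were prominent among the higher genes. Eef1b2 (ENSMUSG00000025967, chr1:63176825-63180486, plus strand), which encodes a subunit of the exchange factor that recharges the elongation factor eEF1A, was at 6396, 6551 and 7092 CPM in the WT monosome libraries and at 1056, 998 and 1241 CPM in WT low polysomes. In KO cells it was at 2056, 1881 and 2270.1 CPM in monosomes and 1168, 1052 and 1200.1 CPM in low polysomes. The low polysome levels of both genotypes overlapped, whereas all 3 KO monosome libraries lay far under all 3 WT ones. Its log2 ratio per gradient was -2.60, -2.71 and -2.51 in WT and -0.82, -0.84 and -0.92 in KO cells, a change of 1.75 ± 0.15, adjusted p = 6.36e-10 (log2 KO minus WT of the ratio ± SE, with the Benjamini-Hochberg adjusted p of limma, as for all such values below).

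Other components of the elongation and initiation machinery moved in the same direction. In the list of 21 TOP messages outside the ribosomal proteins, 5 rose (23.8% against 1.23% of all genes), all 21 had a change above 0, and the median was 0.81. These 5 were also called without replicate 1 of the KO low polysome libraries, where the median was 0.80, and with total counts 5 were called and the median was 0.68. Beside Eef1b2, these were Eef1d (1.40 ± 0.20, adjusted p = 1.43e-06) and Eef1g (1.15 ± 0.19, adjusted p = 1.65e-05), other subunits of the same exchange factor, and Eif3k (1.31 ± 0.17, adjusted p = 5.04e-07) and Eif3f (1.31 ± 0.16, adjusted p = 1.58e-07) of the initiation factor eIF3. Eif3f was at 889, 841 and 957 CPM in WT and 309.6, 282 and 315 CPM in KO cells in monosomes, with no overlap, and at 209, 181 and 218 CPM in WT and 189.9, 154 and 165 CPM in KO cells in low polysomes. For Eif3k, monosomes held 585, 599.5 and 711 CPM in WT and 349, 284 and 365 CPM in KO cells and low polysomes 301, 299 and 309 CPM in WT and 484, 351 and 367 CPM in KO cells, so that KO cells were lower in the former and higher in the latter. KO and WT levels of the list differed by a median of -1.20 for monosomes and -0.44 for low polysomes.

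Cytosolic ribosomal protein genes behaved like the TOP messages in monosomes but not in high polysomes. Of 84 measured, 17 rose (20.2%) and 3 fell (3.57%, near the 3.81% of all genes), with a median change of 0.48. The median ratio per gradient was -1.51, -1.53 and -1.52 in WT and -0.80, -0.97 and -1.11 in KO gradients. KO and WT levels of these 84 genes differed by a median of -1.16 for monosomes and -1.10 for high polysomes. The low polysome median was -0.72. For the other TOP messages, the monosome and high polysome medians were -1.20 and 0.00131. Rps19 (ENSMUSG00000040952, chr7:24884371-24889806, plus strand) was at 4159.6, 4211 and 4381 CPM in WT monosomes and 1034, 897 and 829 CPM in WT low polysomes. In KO cells, it was at 1097, 796 and 1009.9 CPM in monosomes and 771, 599.8 and 499 CPM in low polysomes, lower in both fractions but by more in monosomes, which gave a change of 1.57 ± 0.18, adjusted p = 3.4e-08. Rps7 (1.53 ± 0.41, adjusted p = 0.00888) and Rps4x (1.505 ± 0.35, adjusted p = 0.00223) rose too. Without replicate 1 of the KO low polysome libraries, 14 members rose and 3 fell, and with total counts 10 rose and 3 fell. Since reads that align to several places were discarded and many processed pseudogenes copy these genes, their counts are uncertain. The same holds for the pseudogenes Rpl14-ps1 (1.64 ± 0.31, adjusted p = 0.00018), Gm8420 (1.59 ± 0.34, adjusted p = 0.000846) and Gm6472 (1.58 ± 0.37, adjusted p = 0.00231), which were among the 12 higher genes named by rule, and of 360 pseudogenes 20 were called higher (5.56%) and 8 lower (2.22%).

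The 3 ribosomal protein genes that fell were Rpl39l (-1.61 ± 0.20, adjusted p = 2.09e-07), Rps27l (-1.44 ± 0.15, adjusted p = 6.8e-09) and Rps29 (-1.25 ± 0.33, adjusted p = 0.00792). Rpl39l and Rps27l encode paralogs of ribosomal proteins rather than the standard subunits, and all 3 have a CDS of 153 to 252 nucleotides. Rps27l was at 1179, 1285 and 1325 CPM in WT low polysomes and 200.4, 253 and 234 CPM in KO low polysomes, and at 1751, 1834 and 1738 CPM in WT and 808, 989 and 829.7 CPM in KO cells in monosomes. Both fractions were lower in KO cells, the low polysomes by more.

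**Figure D3:**
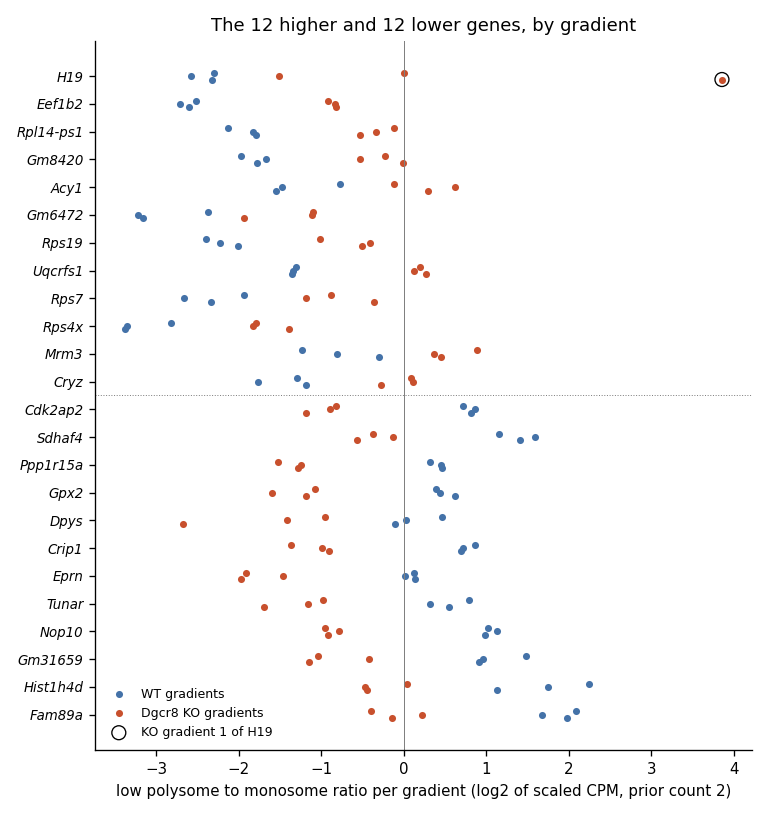
Low polysome to monosome ratio (log2 of scaled CPM with a prior count of 2) in each of 3 WT and 3 KO gradients for the 12 higher genes (above the dotted line) and the 12 lower genes named by rule. All KO points lie to the right of all WT points for the higher genes and to the left for the lower genes, a condition of the rule, and the circled value of H19 is the gradient with the library that stood apart.

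H19, an imprinted long noncoding RNA (lncRNA) that is also a miRNA host, had the largest change among the genes named (3.15 ± 0.79, adjusted p = 0.00481), and 1 library set much of its size. It was at 231, 288 and 269 CPM in WT monosomes, 45.5, 47.4 and 53.9 CPM in WT low polysomes and 10.0, 13.2 and 6.27 CPM in KO monosomes. In KO low polysomes, replicate 1 had 154 CPM and the others 4.17 and 6.31 CPM. Without replicate 1, the change was 1.59 (adjusted p = 0.00452). The other imprinted genes called were Ndn (2.94 ± 0.84, adjusted p = 0.0152) and Igf2 (1.72 ± 0.53, adjusted p = 0.027), of 25 measured, and the median of the list went from 0.36 to 0.15 without that library, which left 2 higher and 1 lower.

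The remaining higher genes named by rule were enzymes of several kinds. Acy1, an aminoacylase, was at 39.5, 47.1 and 28.3 CPM in WT and 16.7, 14.4 and 21.2 CPM in KO cells in monosomes and at 13.05, 16.5 and 16.3 CPM in WT and 20.6, 22.4 and 19.4 CPM in KO cells in low polysomes, with no overlap in either (1.58 ± 0.32, adjusted p = 0.000381). Uqcrfs1, the Rieske iron-sulfur subunit of respiratory complex III, was at 177, 183 and 219 CPM in WT and 83.9, 63.7 and 78.7 CPM in KO cells in monosomes and at 69.1, 71.7 and 88.5 CPM in WT and 101, 69.5 and 90.4 CPM in KO cells in low polysomes (1.54 ± 0.21, adjusted p = 9.19e-07). Cryz, a quinone reductase, changed by 1.45 ± 0.25, adjusted p = 5.91e-05, with -1.68 in monosomes and -0.23 in low polysomes. Mrm3, a methyltransferase of mitochondrial ribosomal RNA, was at 18.3, 13.7 and 9.33 CPM in WT and 27.7, 20.2 and 31.0 CPM in KO cells in low polysomes, where every KO library was above every WT one (1.46 ± 0.35, adjusted p = 0.00344).

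Many of the lower genes were small messages. Nop10 (ENSMUSG00000027133, chr2:112261926-112263269, plus strand), which encodes a small protein of the telomerase and H/ACA small nucleolar ribonucleoproteins from a CDS of 192 nucleotides, was at 704, 654 and 642 CPM in WT monosomes and 610.4, 849 and 736 CPM in KO monosomes, which overlap. In low polysomes, it was at 1394, 1428 and 1304 CPM in WT and 324, 494 and 379.9 CPM in KO cells. Every KO low polysome library was thus below every WT one, and the ratio went from 0.99, 1.12 and 1.02 in WT gradients to -0.91, -0.78 and -0.95 in KO gradients (change -1.93 ± 0.18, adjusted p = 1.13e-09).

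Fam89a had the largest fall among the 12 lower genes named by rule, -2.04 ± 0.34, adjusted p = 3.27e-05. Its monosome level was higher in KO cells (8.71, 10.3 and 8.84 CPM in WT and 28.4, 19.4 and 28.6 CPM in KO cells) and its low polysome level lower (36.3, 34.6 and 39.7 CPM in WT and 25.5, 22.7 and 21.5 CPM in KO cells). Crip1, a small LIM domain protein, had overlapping monosome levels (73.7, 67.8 and 77.8 CPM in WT and 64.5, 77.7 and 78.0 CPM in KO cells) and was at 119.9, 112 and 141 CPM in WT and 34.1, 38.8 and 29.7 CPM in KO low polysomes (-1.88 ± 0.22, adjusted p = 3.54e-08). Cdk2ap2, a regulator of CDK2, changed by -1.77 ± 0.20, adjusted p = 1.98e-08 and Sdhaf4, an assembly factor of succinate dehydrogenase, by -1.78 ± 0.24, adjusted p = 6.37e-07. Tunar, long described as a noncoding RNA and listed here with a CDS of 144 nucleotides, was lower in both fractions of KO cells and changed by -1.92 ± 0.43, adjusted p = 0.00165. The lncRNAs Gm31659 (-1.97 ± 0.21, adjusted p = 9.07e-09) and Eprn (-1.91 ± 0.27, adjusted p = 1.68e-06) also fell, Gm31659 with more RNA in KO monosomes (77.7, 83.9 and 55.7 CPM in WT and 248, 227 and 262 CPM in KO). Dpys, a dihydropyrimidinase with a CDS of 1557 nucleotides, was not short, and it was at 51.5, 51.9 and 59.0 CPM in WT and 8.91, 19.9 and 23.6 CPM in KO cells in low polysomes (-1.80 ± 0.30, adjusted p = 2.48e-05).

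CDS length set the lower genes apart from the rest. The median CDS was 375 nucleotides in the lower genes, 1219.5 in the higher genes and 1359 over all genes tested. Protein-coding genes with an annotated CDS (11763) were divided into deciles of its length. In the shortest decile (75 to 522 nucleotides), 304 of 1177 genes (25.8%) fell and 5 (0.425%) rose, with a median change of -0.74. These 304 were 68.3% of all protein-coding genes called lower. In the second decile, the median was -0.23 with 58 lower and 17 higher genes, and from the third decile on it was between 0.02 and 0.20. In the longest decile, 2 genes fell and 11 rose. Leaving out replicate 1 of the KO low polysome libraries gave 301 lower genes in the shortest decile, scaling to total counts 390 and the gradient block 307.

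Short messages differed between genotypes in every gradient. The median ratio of the shortest decile was 0.33, 0.33 and 0.39 in the WT gradients and -0.42, -0.29 and -0.46 in the KO gradients. Short messages were richer in low polysomes in WT cells and richer in monosomes in KO cells. The longest decile was richer in low polysomes in both genotypes (0.39, 0.40 and 0.45 in WT and 0.56, 0.62 and 0.60 in KO). By fraction, KO and WT levels of the shortest decile differed by a median of -0.13 for monosomes, -0.85 for low polysomes and -1.13 for high polysomes.

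Taken over all protein-coding genes, the Spearman correlation of CDS length with the ratio was -0.0635, -0.0563 and -0.0551 in WT gradients and 0.210, 0.152 and 0.238 in KO gradients, a difference of 0.258 between means of -0.0583 ± 0.00452 and 0.200 ± 0.0440 (SD, n = 3 gradients each; two-sided exact permutation p = 0.1, the smallest that 3 against 3 allows). Genes are not independent replicates, and each rho describes its gradient. This is 1 of 3 such comparisons, and the adjusted value of each is 0.1. The change itself had a rho of 0.31 with CDS length across genes, compared with 0.10 for 3′ UTR length, 0.00367 for 5′ UTR length, -0.09 for the GC content of the CDS and -0.05 for the number of upstream ATG codons.

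**Figure D4:**
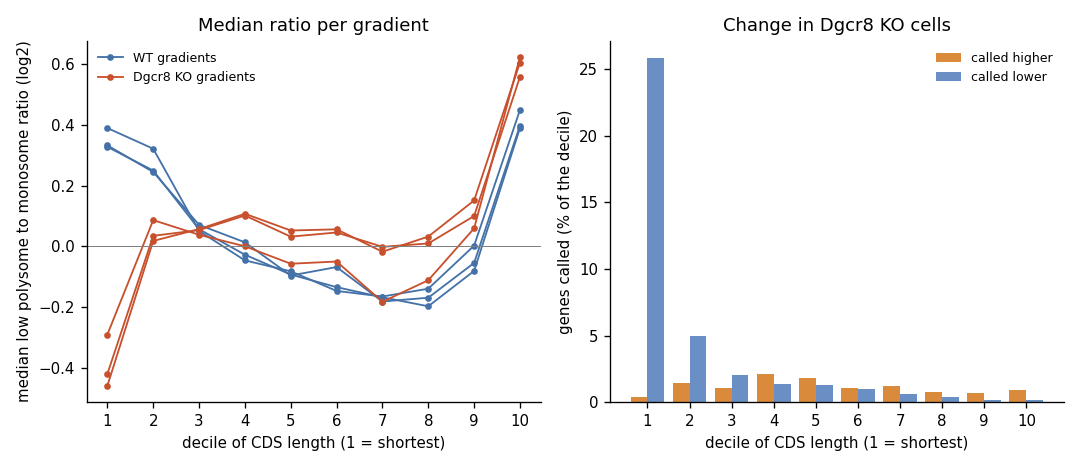
Left, median low polysome to monosome ratio (log2) of protein-coding genes in deciles of CDS length, with a line for each of 3 WT and 3 KO gradients; right, share of each decile called higher or lower in KO cells. In the shortest decile the WT medians are 0.33 to 0.39 and the KO medians -0.46 to -0.29, and 25.8% of its genes are called lower.

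Ribosomal protein genes and TOP messages ran against this pattern. The shortest decile held 54 of them, of which 4 rose and 3 fell, and of the other 1123 genes 1 rose and 301 (26.8%) fell. Without them, the correlations with CDS length differed by 0.264 between genotypes, against 0.258 with them.

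Small subunits of the respiratory chain, which oxidative phosphorylation complexes carry in large numbers, were often called lower. Of 80 nuclear-encoded subunits measured, 23 fell (28.8%) and 4 rose, with a median of -0.66, and all 23 that fell lay in the range of the shortest decile, which held 53 of the 80. Thus 23 of these 53 fell, beside 25.8% of all genes of that decile. Ndufc1 of complex I was at 619, 680.4 and 683 CPM in WT and 102, 136 and 119 CPM in KO cells in low polysomes and at 561, 543 and 523 CPM in WT and 286, 305 and 299 CPM in KO cells in monosomes, lower in both fractions of KO cells, with a change of -1.61 ± 0.17, adjusted p = 6.74e-09. Uqcr11 of complex III had overlapping monosome levels (411, 403 and 316 CPM in WT and 389, 400.3 and 393 CPM in KO cells) and was at 646, 603 and 549 CPM in WT and 220.1, 237 and 186 CPM in KO cells in low polysomes (-1.56 ± 0.17, adjusted p = 8.29e-09). Cox6b2, an isoform of a complex IV subunit, changed by -1.56 ± 0.24, adjusted p = 6.96e-06. The subunits that rose had a longer CDS. These were Uqcrfs1 (822 nucleotides), Uqcrc2 (1359 nucleotides, 1.11 ± 0.26, adjusted p = 0.00234), Ndufa10 (1065 nucleotides, 1.09 ± 0.19, adjusted p = 6.79e-05) and Atp5a1 (1659 nucleotides, 1.06 ± 0.22, adjusted p = 0.000516). Without replicate 1 of the KO low polysome libraries, 22 fell and 1 rose, and with total counts 29 fell and 1 rose.

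Mitochondrial ribosomal proteins gave 9 lower genes of 77 (11.7%) and a median of -0.31, and 8 of the 9 lay in the shortest decile. That decile held 29 of the 77, so these calls were near its own share of 25.8%. Mrpl54 was at 98.4, 118 and 102.6 CPM in WT and 108, 92.4 and 119 CPM in KO cells in monosomes and at 179, 163 and 185 CPM in WT and 72.8, 71.1 and 49.9 CPM in KO cells in low polysomes (-1.46 ± 0.21, adjusted p = 2.22e-06), and Mrpl57 (-1.33 ± 0.17, adjusted p = 2.62e-07) and Mrps21 (-1.32 ± 0.34, adjusted p = 0.0064) fell too. In contrast, 11 of the 12 genes measured from the mitochondrial genome, which are translated inside the organelle, had a change above 0 (median 0.60). Of these, mt-Nd4 alone was called (1.004 ± 0.26, adjusted p = 0.00667), and it was called in 6 of 18 alternatives. Its call was lost without replicate 1 of the KO low polysome libraries, where its difference was 0.66, and also with total counts.

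Replication-dependent histone messages, which mostly end in a stem loop rather than a poly(A) tail and are caught by this method only in part, had the lowest median of all the lists (-0.88). Of 32 measured, 27 had a change below 0 and 5 fell (15.6%), all 5 within the shortest decile, which held 27 of the 32 and of whose genes 25.8% fell. Hist1h4d was at 129.8, 121 and 283 CPM in WT and 35.0, 35.9 and 70.9 CPM in KO low polysomes, and at 58.9, 35.5 and 59.2 CPM in WT and 47.8, 50.1 and 68.9 CPM in KO cells in monosomes, which overlap (-2.02 ± 0.36, adjusted p = 9.75e-05). Hist1h2bk changed by -1.43 ± 0.38, adjusted p = 0.00916. Histone genes of a class are near copies of each other, so their counts are uncertain. The list had 4 lower genes without replicate 1 of the KO low polysome libraries and 8 with total counts.

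In some larger lists, a short member fell while few of the others were called. Among 36 proteasome subunits, Sem1, the shortest with a CDS of 210 nucleotides, was the 1 that fell (-1.37 ± 0.15, adjusted p = 1.07e-08), with 486, 473 and 472 CPM in WT and 130.0, 128 and 129 CPM in KO cells in low polysomes. Psmc4 rose (1.09 ± 0.26, adjusted p = 0.00339, lost without the library that stood apart), and 30 of the 36 had a change above 0 (median 0.35). Among 70 motor protein genes (median 0.13), 4 fell, and 3 of these were the dynein light chains Dynll1 (-1.44 ± 0.16, adjusted p = 1.32e-08), Dynll2 (-1.42 ± 0.15, adjusted p = 6.84e-09) and Dynlrb1 (-1.43 ± 0.19, adjusted p = 4.44e-07), with a CDS of 267, 267 and 288 nucleotides. Dynll2 was higher in KO monosomes (342, 341 and 291 CPM in WT and 715, 720.3 and 714 CPM in KO cells) and lower in KO low polysomes (498, 506 and 492 CPM in WT and 429, 433 and 378 CPM in KO cells). The shortest decile, of whose genes 25.8% fell, held 10 of the 70 motor genes, and these light chains were the 3 of them that fell. The fourth motor gene, Myo5c (-1.21 ± 0.41, adjusted p = 0.0475), has a long CDS of 5226 nucleotides and was not called without the library that stood apart. Within the DNA replication machinery, Pole4, a small accessory subunit of DNA polymerase epsilon, was the 1 of 49 genes (median 0.15) that fell (-1.46 ± 0.17, adjusted p = 3.79e-08), and without the library that stood apart 2 fell.

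Of 279 Zfp zinc finger genes, 4 fell (1.43%, under the 3.81% of all genes) and 1 rose. The short Zfp706 (-1.75 ± 0.17, adjusted p = 2.46e-09) and Zfp580 (-1.40 ± 0.33, adjusted p = 0.00303) kept their call without the library that stood apart, whereas Zfp3 (-1.89 ± 0.58, adjusted p = 0.0277) and Zfp874a (-2.25 ± 0.73, adjusted p = 0.0373), with few counts and CDS of 1491 and 1341 nucleotides, lost it. Zfp512 rose (1.07 ± 0.27, adjusted p = 0.00531). The median of the Zfp genes was 0.04, and -0.09 with total counts, where 7 fell and 0 rose.

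Messages whose translation is held back by upstream open reading frames (uORFs) fell in part. Of 15 on that list, 4 fell (26.7%) and 10 had a change below 0, with a median of -0.57. Atf4 (ENSMUSG00000042406, chr15:80255184-80257541, plus strand), the transcription factor of the integrated stress response, was at 1658, 1476 and 1427 CPM in WT low polysomes and 227, 229 and 227 CPM in KO low polysomes. In monosomes it was at 913, 959 and 984 CPM in WT and 400.2, 537 and 436 CPM in KO cells, so it was lower in both fractions and by more in low polysomes (change -1.67 ± 0.16, adjusted p = 1.13e-09). Its paralog Atf5 changed by -1.34 ± 0.26, adjusted p = 0.000306, and Sat1, described with the polyamine genes, was the fourth. Ppp1r15a, which encodes GADD34, the phosphatase subunit that reverses eIF2 phosphorylation, was at 87.1, 94.9 and 89.3 CPM in WT and 87.3, 102.9 and 92.4 CPM in KO cells in monosomes and at 119.9, 130.0 and 112 CPM in WT and 35.3, 42.9 and 31.8 CPM in KO cells in low polysomes (-1.79 ± 0.19, adjusted p = 1.07e-08). Atf4 and Ppp1r15a have a CDS of 1047 and 1971 nucleotides and are not among the short messages.

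Targets of ATF4 did not follow as a group. Of 31 genes on the integrated stress response list, 5 fell (16.1%) but 20 had a change above 0, and the median was 0.19. The 5 were Ppp1r15a, Atf4, Atf5, Nupr1 (-1.13 ± 0.38, adjusted p = 0.0487) and Eif4ebp1 (-1.28 ± 0.15, adjusted p = 7.2e-08), which has a short CDS of 351 nucleotides. Eif4ebp1 was at 1446, 1391 and 1552 CPM in WT and 192, 243 and 221 CPM in KO cells in low polysomes and at 1047, 927 and 1016 CPM in WT and 332, 373 and 374 CPM in KO cells in monosomes. Nupr1 was not called without the library that stood apart. Across the list, the median KO to WT difference was -1.56 in monosomes and -1.68 in low polysomes.

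Lower genes also stood in 2 further lists of messages under special translational control. Selenoproteins, whose messages recode a stop codon as selenocysteine, had 8 lower genes of 21 (38.1%) and a median of -0.73, and 4 of the 8 lay in the range of the shortest decile. Gpx2 was at 45.8, 44.9 and 44.3 CPM in WT and 23.1, 20.8 and 23.9 CPM in KO low polysomes while its monosome level was higher in KO cells (29.5, 32.9 and 33.6 CPM in WT and 53.4, 64.5 and 51.3 CPM in KO cells), a change of -1.80 ± 0.24, adjusted p = 4.29e-07. Msrb1 (-1.56 ± 0.22, adjusted p = 1.88e-06), a methionine sulfoxide reductase, and Selenom (-1.51 ± 0.23, adjusted p = 4.38e-06) fell by similar amounts. Without replicate 1 of the KO low polysome libraries, 7 fell and the median was -0.50. Of 11 polyamine genes, 3 fell (27.3%), with a median of -0.51. These were the antizymes Oaz1 (-1.23 ± 0.25, adjusted p = 0.000446) and Oaz2 (-1.36 ± 0.20, adjusted p = 1.95e-06), which are made by a polyamine-driven frameshift, and Sat1 (-1.35 ± 0.41, adjusted p = 0.0222), which acetylates polyamines and was not called without the library that stood apart. Oaz1 was at 67.7, 80.1 and 72.5 CPM in WT and 14.8, 20.8 and 21.8 CPM in KO low polysomes. Iron-regulated genes, in contrast, gave 0 calls of 12 by limma, edgeR and DESeq2 (4 at an unadjusted p under 0.05), with a median of 0.45. Fth1, the ferritin heavy chain, stayed within the fold threshold at 0.87 ± 0.21, adjusted p = 0.00449.

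**Figure D5:**
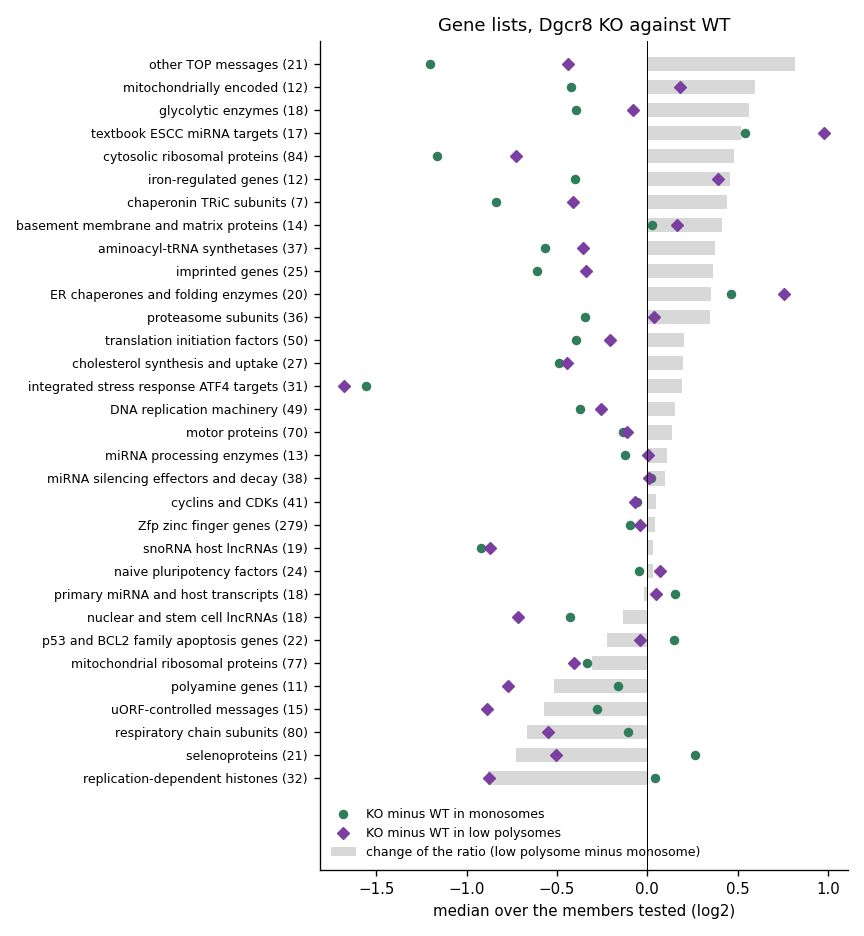
Medians over the members tested of 32 gene lists (number tested in brackets), on the log2 scale, for the change of the low polysome to monosome ratio (bars), KO minus WT in monosomes (circles) and KO minus WT in low polysomes (diamonds). TOP messages and ribosomal proteins combine a positive bar with monosome medians of -1.20 and -1.16, and histones a bar of -0.88 with a monosome median of 0.04.

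Since the knockout removes miRNAs, genes with sites for the ESCC miRNAs were examined next. RefSeq (GRCm38.p6) holds 5 mature mouse miRNAs with the ESCC seed at bases 2 to 8, shown here because this seed defines the site searched. Capitals mark the seed.
miR-302b-3p, chr3:127545275-127545297, plus strand: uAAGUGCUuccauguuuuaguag
miR-302d-3p, chr3:127545665-127545687, plus strand: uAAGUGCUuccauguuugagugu
miR-291a-3p, chr7:3218968-3218989, plus strand: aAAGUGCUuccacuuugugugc
miR-294-3p, chr7:3220691-3220712, plus strand: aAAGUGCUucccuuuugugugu
miR-295-3p, chr7:3220815-3220837, plus strand: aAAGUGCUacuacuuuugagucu

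A site was a match on the sense strand of the 3′ UTR of 1 transcript per gene to AGCACTT (pairing with the whole seed) or GCACTTA (pairing with bases 2 to 7, followed by an A), and a match to AGCACTTA, which holds both, was an 8mer counted once. Such a match is a description of the sequence and was not shown to be a working site. Of the genes with a 3′ UTR, 2168 (18.7%) held at least 1 site and 9448 held none. Genes with a site had a slightly higher median change (0.13) than those without (0.05). Of the genes with a site, 35 rose (1.61%) and 42 fell (1.94%), compared with 99 (1.05%) and 400 (4.23%) of the others. The 370 genes with an 8mer had a median of 0.19, with 12 higher (3.24%) and 7 lower (1.89%).

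This difference was small against the range of the ratio, and every KO gradient lay above every WT gradient. The median ratio of genes with a site minus that of genes without was -0.0443, -0.0433 and 0.00230 in WT gradients and 0.0787, 0.0863 and 0.159 in KO gradients. The means of -0.0284 ± 0.0266 and 0.108 ± 0.0446 (SD, n = 3 each) differed by 0.137, with no overlap (two-sided exact permutation p = 0.1, the smallest possible). The 3′ UTRs were longer where a site was found (median 2290.5 against 760.5 nucleotides) and so was the CDS (median 1479 against 1332 nucleotides). Averaged within quartiles of 3′ UTR length the difference between genotypes was 0.11, and within quartiles of CDS length it was 0.0945. Their KO to WT difference in level exceeded that of the other genes in either fraction, with medians of 0.11 in monosomes and 0.24 in low polysomes, against -0.05 and -0.00818.

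Textbook targets of the ESCC miRNAs had a median change of 0.52 over 17 genes, of which 13 were above 0 and 1 rose (5.88%). Of the 17, 15 held a site. The member called was Casp2, a caspase, whose 3′ UTR (transcript Casp2-201) holds 3 sites, shown in capitals with the bases around them on GRCm38.
Casp2 site 1, chr6:42281278-42281304, plus strand: gcttctgcatGCACTTAcactgtactt
Casp2 site 2, chr6:42281548-42281574, plus strand: ataacctagaAGCACTTgtctctgctc
Casp2 site 3, chr6:42282070-42282096, plus strand: ccagtaactgGCACTTActaggtcttc

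Casp2 was at 36.8, 23.2 and 41.6 CPM in WT and 30.6, 32.2 and 32.1 CPM in KO monosomes, which overlap, and at 11.3, 12.3 and 13.2 CPM in WT and 26.4, 18.9 and 28.1 CPM in KO low polysomes, which do not. The change was 1.004 ± 0.31, adjusted p = 0.0258, at the edge of the fold threshold. With total counts 0 of the list were called, and without replicate 1 of the KO low polysome libraries the gene had a change of 0.95 and an adjusted p of 0.0506. The other targets were not alike in level and distribution. Lefty1, an inhibitor of Nodal signalling, was at 81.7, 93.6 and 64.5 CPM in WT and 606, 774 and 914 CPM in KO cells in monosomes and at 94.5, 80.9 and 66.8 CPM in WT and 1228, 1292 and 2024 CPM in KO cells in low polysomes. Its ratio differed by 0.98 ± 0.26, adjusted p = 0.00889, which is under the fold threshold, and by 1.11 (limma adjusted p = 0.00168) without replicate 1 of the KO low polysome libraries, where it was called. Cdkn1a, the cell cycle inhibitor p21, was at 544, 428 and 422 CPM in WT and 1063, 1052 and 996 CPM in KO low polysomes, and its ratio differed by 0.56 ± 0.16, adjusted p = 0.012, also under the fold threshold. Lefty2 (KO to WT difference -0.06 in monosomes and 0.54 in low polysomes, ratio 0.60 ± 0.18, adjusted p = 0.0207), Smarcc2 (-0.09 and 0.54, ratio 0.63 ± 0.19, adjusted p = 0.0228) and Arid4b (-0.05 and 0.55, ratio 0.59 ± 0.31, adjusted p = 0.231) differed in low polysomes but hardly in monosomes, and were not called. These genes and Casp2 were set beside each other after their values were seen. The 8mers of Lefty1 and Cdkn1a are shown for comparison.
Lefty1, chr1:180938203-180938230, plus strand: ctgtatgcgaAGCACTTAcatgtataga
Cdkn1a, chr17:29100490-29100517, plus strand: tgggtgtcaaAGCACTTAgtgggtctga

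Genes for the miRNA pathway itself gave few calls. Of 13 miRNA processing genes, 0 were called by limma, edgeR or DESeq2 (1 at an unadjusted p under 0.05), with a median of 0.11, or -0.02 with total counts. Lin28b, which blocks let-7 processing, was at 2.68, 2.58 and 7.07 CPM in WT and 14.5, 22.5 and 15.7 CPM in KO cells in monosomes and at 1.06, 0.837 and 1.20 CPM in WT and 12.3, 13.1 and 9.72 CPM in KO cells in low polysomes, with a difference in ratio of 1.11 ± 0.65, adjusted p = 0.306. For Ran, the GTPase of nuclear export, it was 0.47 ± 0.16, adjusted p = 0.0512. Of 38 silencing and decay genes (median 0.10, or -0.03 with total counts), Lsm1, a subunit of the decapping activator ring (-1.36 ± 0.24, adjusted p = 8.93e-05), and Btg1, an adaptor of deadenylases (-1.07 ± 0.27, adjusted p = 0.00514), fell. Both have a short CDS (399 and 513 nucleotides), and Btg1 was not called without replicate 1 of the KO low polysome libraries (-0.81). Primary miRNA and host transcripts gave 0 calls of 18 by limma, edgeR and DESeq2, with 0 at an unadjusted p under 0.05 and a median of -0.02, or -0.04 with DESeq2 size factors and 0.05 without the library that stood apart. In 6 of these 18, every library of 1 group held 3 counts or fewer. H19, the miRNA host called higher above, was not on this list.

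LncRNAs were richer in monosomes than protein-coding genes in WT cells, and more so in KO cells. The median ratio of 494 lncRNAs minus that of protein-coding genes was -0.64, -0.64 and -0.70 in WT gradients and -1.10, -1.05 and -1.16 in KO gradients, with means of -0.66 ± 0.03 and -1.10 ± 0.05 (SD, n = 3 each) that differed by -0.44 (two-sided exact permutation p = 0.1, the smallest possible). The difference depends on how low counts are treated: it was -0.28 with a prior count of 5 and -0.59 with 0.5. With no filter on low counts it was 0.00791, with the direction turned. There the value was 0 in every KO gradient and in WT gradients 1 and 2, so this setting cannot measure the difference. Of the 494, 35 fell (7.09%) and 1 rose, which was H19. Platr10, expressed in pluripotent cells, was at 187, 186 and 199 CPM in WT and 42.7, 53.8 and 54.9 CPM in KO low polysomes (-1.29 ± 0.19, adjusted p = 3.3e-06), and it and H19 were the genes called of 18 nuclear and stem cell lncRNAs (median -0.14, and 0.01 without the library that stood apart). Of 19 snoRNA host lncRNAs, 0 were called by limma, edgeR or DESeq2 (6 at an unadjusted p under 0.05), with a median of 0.03, or -0.10 with total counts. Gas5, whose message carries a TOP tract, was at 2066, 2122 and 2467 CPM in WT and 661, 874 and 757 CPM in KO cells in monosomes. Its ratio differed by 0.67 ± 0.19, adjusted p = 0.0134, whereas that of Snhg5 differed by -0.70 ± 0.18, adjusted p = 0.00523, both under the fold threshold. Without the library that stood apart, Gas5 differed by 0.44 (limma adjusted p = 0.0932) and Snhg5 by -0.69 (limma adjusted p = 0.0106).

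Apoptosis genes gave 4 lower genes of 22 (18.2%), with a median of -0.22. Pmaip1, which encodes the BH3-only protein NOXA from a CDS of 309 nucleotides, was higher in both fractions of KO cells, at 5.36, 3.23 and 5.30 CPM in WT and 65.0, 69.9 and 70.5 CPM in KO cells in monosomes and at 15.5, 12.8 and 17.8 CPM in WT and 62.1, 83.3 and 70.4 CPM in KO cells in low polysomes. The genotypes differed more in monosomes, and the ratio fell (-1.62 ± 0.48, adjusted p = 0.02). Bak1 showed the same order, with KO to WT differences of 1.56 in monosomes and 0.48 in low polysomes (-1.08 ± 0.23, adjusted p = 0.000844), and Bad changed by -1.52 ± 0.21, adjusted p = 9.19e-07. Aen (-1.01 ± 0.34, adjusted p = 0.0457) was the fourth. Without replicate 1 of the KO low polysome libraries, 2 of the list were called.

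The other lists gave few calls. In cyclins and CDKs, Cdk16 was the 1 of 41 genes that fell (-1.29 ± 0.23, adjusted p = 7.81e-05), with a list median of 0.05, or -0.08 with total counts. In 24 naive pluripotency factors, Nr0b1 alone rose (1.23 ± 0.38, adjusted p = 0.0283), with a median of 0.03, or -0.10 with total counts, where 0 rose. Of 50 translation initiation factors (median 0.20), Eif3k, Eif3f and Eif3i (1.06 ± 0.16, adjusted p = 7.23e-06) rose and Eif4ebp1 fell. Eif3i was not called without the library that stood apart, where 2 rose and 2 fell, and with total counts 2 rose and 3 fell. Of 37 aminoacyl-tRNA synthetases (median 0.37), the mitochondrial enzymes Vars2 (1.01 ± 0.28, adjusted p = 0.0124) and Mars2 (1.70 ± 0.38, adjusted p = 0.00178) rose. Vars2 was called in 4 of 18 alternatives, and the list had 1 call without the library that stood apart, with total counts, with edgeR and with DESeq2. Aldoa was the 1 of 18 glycolytic enzymes that rose (1.07 ± 0.17, adjusted p = 9.91e-06), and 15 of the 18 had a change above 0 (median 0.56). Without the library that stood apart, Aldoa was at 0.94 and 0 of the list were called, as with total counts. Dnajb9 was the 1 of 20 ER chaperones (median 0.35) that rose (1.04 ± 0.34, adjusted p = 0.0349). It was called in 10 of 18 alternatives, and with total counts 0 of the list rose and 1 fell. Calls were 0 by limma, edgeR and DESeq2 for 7 subunits of the chaperonin TRiC (median 0.44), 14 basement membrane and matrix genes (median 0.41) and 27 cholesterol genes (median 0.20), with 5, 5 and 9 genes at an unadjusted p under 0.05. The genes with the smallest adjusted p in these lists were Cct5 (0.76 ± 0.18, adjusted p = 0.00353) and Cct8 (0.58), Spp1 (0.87) and Hspg2 (-0.67), and Srebf2 (0.77) and Insig1 (-0.89).

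High polysome values of the same gradients stand beside these changes and share the monosome libraries with them. The high polysome to monosome ratio changed by 1.79 for Eef1b2, 0.86 for Rps19, 0.20 for Rps4x and 0.10 for Gm6472, where the low polysome changes were 1.75, 1.57, 1.505 and 1.58. For Nop10, Atf4, Ppp1r15a and Gpx2 it changed by -1.46, -2.18, -0.92 and -0.41, beside low polysome changes of -1.93, -1.67, -1.79 and -1.80. The values lay furthest apart for Gm6472, Gpx2 and Rps4x among these 8, which were picked after their values were seen, and the differences between the fractions were not tested.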

How the data were processed

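Polysome fractions of 3 WT and 3 Dgcr8 KO gradients were sequenced with a 3′ end method. The deposited values are raw counts per gene, for which the authors trimmed reads (cutadapt 1.14), aligned them to mm10 (STAR 2.5.3a, unique alignments), and counted them (featureCounts 1.5.3) against GENCODE genes without ribosomal RNA. Unique alignment lowers the counts of genes with near copies. Here, 92 spike-in entries were left out (0.000522 to 0.00215% of reads), and genes with at least 3 CPM in at least 3 of all 18 libraries were kept.

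Counts were TMM-scaled (edgeR 4.0.16) and fitted with voom (limma 3.58.1, R 4.3.3) over 6 groups of 3, with the contrast of the KO and WT low polysome to monosome differences. Genes were called at a Benjamini-Hochberg adjusted p under 0.05 and an absolute log2 change over 1. In data simulated for this comparison (12669 genes), changes were planted only in genes with a mean count of 50 or more. Of these changes, 90% of those of 1.5 and 100% of those of 3 (log2) were recovered. Among the genes left unchanged, 4 were called. Recovery at lower counts was not simulated. Per-gradient ratios used a prior count of 2. Coordinates, CDS and UTRs came from GENCODE M21 (GRCm38), which matched 51274 of 51467 genes.

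Genes named were Dgcr8, the 12 higher and 12 lower called genes with the largest change, a mean count of 50 or more, more than 3 counts in a library of each group, no overlap between genotypes and a call without replicate 1 of the KO low polysome libraries, and up to 3 called members per list and direction (or 2 uncalled). The 5 genes with the largest excess in that library were named too. Other members of short lists of calls were named after their values were seen. The members and lists were chosen with earlier results of these data known. Low polysome and monosome libraries of a gradient deviated together (r = 0.115 to 0.245 over genes in all 6 gradients, each highest with its own number), so a fit with the gradient as a replicate block was an alternative, beside other scalings, filters, tools and left-out libraries. Replicates differed by more than sampling noise. Intervals from counts were not used, and the precision is that of the spread between libraries.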

Additional observations from a re-analysis of the deposited data

Results flagged for a closer look

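The comparison is itself a difference between genotypes in the shift from monosomes to low polysomes, and 647 genes passed its test in limma. Reads of synthetic spike-in RNAs, which enter no comparison, were also counted, with 56 reads in the library with the most of them. No library lacked them, and 13 was the lowest number in a library.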

How the results depend on the processing

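The number of genes called was within 1.5 times of 647 under every other scaling, filter, tool and left-out library that was run, from 557 without KO replicate 3 to 785 without KO replicate 2. With the adjusted p alone and no fold threshold, 1464 genes were called (501 higher and 963 lower). The higher genes were less stable, with 81 under total counts and 75 to 150 when 1 gradient was left out (75 without WT replicate 2). The lower genes ran from 420 to 659 when 1 gradient was left out and were 697 under total counts. Calls numbered 677 with edgeR and 648 with DESeq2. The fit with the gradient as a replicate block gave 699 calls (191 higher and 508 lower), 625 of them shared with the 647, and 682 with the replicate number as the block.

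The difference in the CDS length correlation was 0.239 to 0.282 when 1 gradient was left out, 0.336 for the 7021 genes with a mean count of 50 or more and 0.205 with no filter on low counts. For genes with ESCC sites it was 0.111 to 0.152 when 1 gradient was left out and 0.196 for 8mers. With no filter it was 0.0567 (exact permutation p = 0.4), where the value was 0 in WT replicates 1 and 2 and in KO replicate 2. The lncRNA difference was -0.470 to -0.418 when 1 gradient was left out, -0.593 with a prior count of 0.5 and -0.282 with 5. With no filter it turned to 0.00791. Many added genes then had few or no counts, and the value was 0 in every KO gradient and in WT replicates 1 and 2. That setting cannot measure the lncRNA difference. Of 1560 values of 87 named genes under alternatives, 1465 kept their direction and their side of the threshold, 78 lost the call, 8 gained one and 9 turned in sign, all of genes that were not called. With 1 library or gradient left out, Hba-x ranged from -0.66 to 2.86, Hbb-y from -0.52 to 2.74 and Hbb-bh1 from -0.50 to 2.16, each below 0 without KO replicate 1 or KO_low replicate 1 alone. Dgcr8 ranged from -0.12 to 0.22 and was -0.0231 with total counts. Depth limits genes with few counts in monosomes, where 3 counts are 2.60 CPM in the smallest library.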
